A study of Mus musculus with 8 samples.

Results

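The genes described here are those that carry Wnt signals into a cell and those that the signal switches on in return: 19 Wnt ligands, 10 Frizzled receptors, the 2 LRP coreceptors, 3 LGR receptors, 3 R-spondins, 5 feedback genes, 2 transcription factors and 7 secreted antagonists. The Wnt and Frizzled genes were taken by their symbols and the others by name, which gave 51 of the 24419 gene symbols in the count table. Their levels were measured by bulk RNA-seq in mouse models of endometrial cancer, with 2 libraries from each of 4 models. Uterus organoids of CAG-Cas9-EGFP mice, in which Cas9 is driven by a ubiquitous promoter, were edited and placed into the uterus of nude mice, which lack T cells but keep the other cells of the host. Every model carried an sgRNA against Trp53 among its edits. TPM also carried Myc overexpression, TPMCa carried these changes and Pik3ca E545K cDNA, TPMR1 carried them with an sgRNA against Pik3r1 in place of the cDNA, and TPK had no added Myc. The sample labels call the material tumor organoids, whereas the study's methods speak of tumors removed some 2 months after the organoids were transplanted, with a mouse for each library. The organoid donors were female mice of 8 to 10 weeks and the hosts female mice of 8 weeks. The purity of the tumors was not given in the sources used here.

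Wnt proteins are lipid-modified secreted ligands. In the canonical branch a ligand joins a Frizzled receptor to the coreceptor LRP5 or LRP6, which stops the destruction of beta-catenin and lets it act with TCF and LEF factors on target genes. Several targets act back on the pathway: AXIN2 promotes destruction of beta-catenin, RNF43 and ZNRF3 remove Frizzled receptors from the membrane, NOTUM strips the lipid from Wnt proteins and NKD1 acts on Dishevelled. R-spondins bind LGR receptors and shield Frizzled from RNF43 and ZNRF3. In the uterus, Wnt4, Wnt5a and Wnt7a are known for their part in the patterning of the female tract and in gland formation, and Wnt7a is a ligand of the luminal epithelium. Organoid medium in the study held Wnt3a and R-spondin, so the cells were grown with these signals before transplantation.

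Wnt11 and Wnt16 were among the ligands called higher in TPM than in the mean of TPMCa and TPMR1. Wnt11 was called neither in TPK nor in the edgeR F test among the 4 models (adjusted p = 0.104). Stretches of 3 promoters are shown, those of both ligands and of Axin2, the feedback gene most often read as a marker of canonical signaling. Each is the 250 bases before a RefSeq start site, on the plus strand of GRCm38, and the capitals mark the letters ATCAAAG, the core that TCF and LEF factors bind, searched on both strands as ATCAAAG or CTTTGAT. None of the 3 windows overlapped an exon of the GENCODE annotation.
Wnt11, chr7:98834862-98835111: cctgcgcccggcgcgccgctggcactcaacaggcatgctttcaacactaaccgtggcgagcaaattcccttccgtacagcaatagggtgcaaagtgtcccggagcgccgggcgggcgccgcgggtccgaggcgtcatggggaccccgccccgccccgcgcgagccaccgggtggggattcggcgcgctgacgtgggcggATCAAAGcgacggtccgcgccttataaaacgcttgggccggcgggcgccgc
Wnt16, chr6:22287977-22288226: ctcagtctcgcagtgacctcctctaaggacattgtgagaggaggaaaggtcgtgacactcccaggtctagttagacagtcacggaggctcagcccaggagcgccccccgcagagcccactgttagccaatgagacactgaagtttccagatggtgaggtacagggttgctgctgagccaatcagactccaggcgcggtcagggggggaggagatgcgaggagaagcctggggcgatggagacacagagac
Axin2, chr11:108920099-108920348: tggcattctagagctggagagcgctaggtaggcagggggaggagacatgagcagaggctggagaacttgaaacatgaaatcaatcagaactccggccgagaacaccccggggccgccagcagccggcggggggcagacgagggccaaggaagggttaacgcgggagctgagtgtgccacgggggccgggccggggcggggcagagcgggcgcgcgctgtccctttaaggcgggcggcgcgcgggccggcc
In the Wnt11 window the motif began 51 bases before the start site. The window of a second RefSeq start site of Wnt11, chr7:98838595-98838844, did not hold it. The windows of Wnt16 and Axin2 did not hold these letters, which says nothing of other sites. RefSeq windows, here from 250 bases before to 50 bases after the start site, were at hand for 33 of the 51 genes, and 2 of them, Wnt5b and Wnt11, held the motif in at least 1 window, which is 6.06% of the 33. The share over all 27025 genes with such a window was 4.29%. A match describes the sequence and not a bound site.

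The total counts of the libraries lay between 15748396 and 26943611, so that 3 counts, taken as the floor, corresponded to 0.116 to 0.198 CPM, in which each library's counts are divided by its TMM-adjusted total, which covers counting error only. Trp53, the gene targeted in every model, was measured at 106 and 131 CPM in TPM, 38.3 and 36.9 CPM in TPK, 78.5 and 70.2 CPM in TPMCa and 33.2 and 55.1 CPM in TPMR1, and an sgRNA need not lower the RNA of its target. Myc was at 772 and 1767 CPM in TPM, 154 and 92.8 CPM in TPK, 3075 and 324 CPM in TPMCa and 606 and 466 CPM in TPMR1, so the libraries labelled with Myc overexpression all lay above those of TPK. Pik3r1 was at 101 and 51.3 CPM in TPMR1, 78.1 and 80.9 CPM in TPMCa, 99.6 and 188 CPM in TPM and 159 and 156 CPM in TPK. Its edgeR adjusted p was 0.974 between TPMR1 and TPMCa. Against the mean of these 2 models it was 0.177 for TPM and 0.0972 for TPK. The replicates of TPMR1 lay further apart than those of the other models: 2012 of the tested genes differed over 4-fold between them, against 464 to 792 in the other models. Among the 44 Wnt genes with enough counts to test, 7 differed over 4-fold between the TPMR1 replicates, 5 between those of TPMCa, 2 between those of TPK and 0 between those of TPM. Epithelial markers stood apart between the models too. The 6 genes read for epithelium at large, the keratins Krt7, Krt8, Krt18 and Krt19 with Cdh1 and Epcam, summed to 2941 to 5498 CPM in the TPM and TPK libraries and to 6.47 to 73.3 CPM in those of TPMCa and TPMR1, so the epithelium that the labels imply was nearly absent from the RNA of TPMCa and TPMR1. Markers of steroid-making cells of gonad and adrenal summed to 5232 and 729.8 CPM in TPMR1 and to 13.4 to 38.7 CPM elsewhere.

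**Figure D1:**
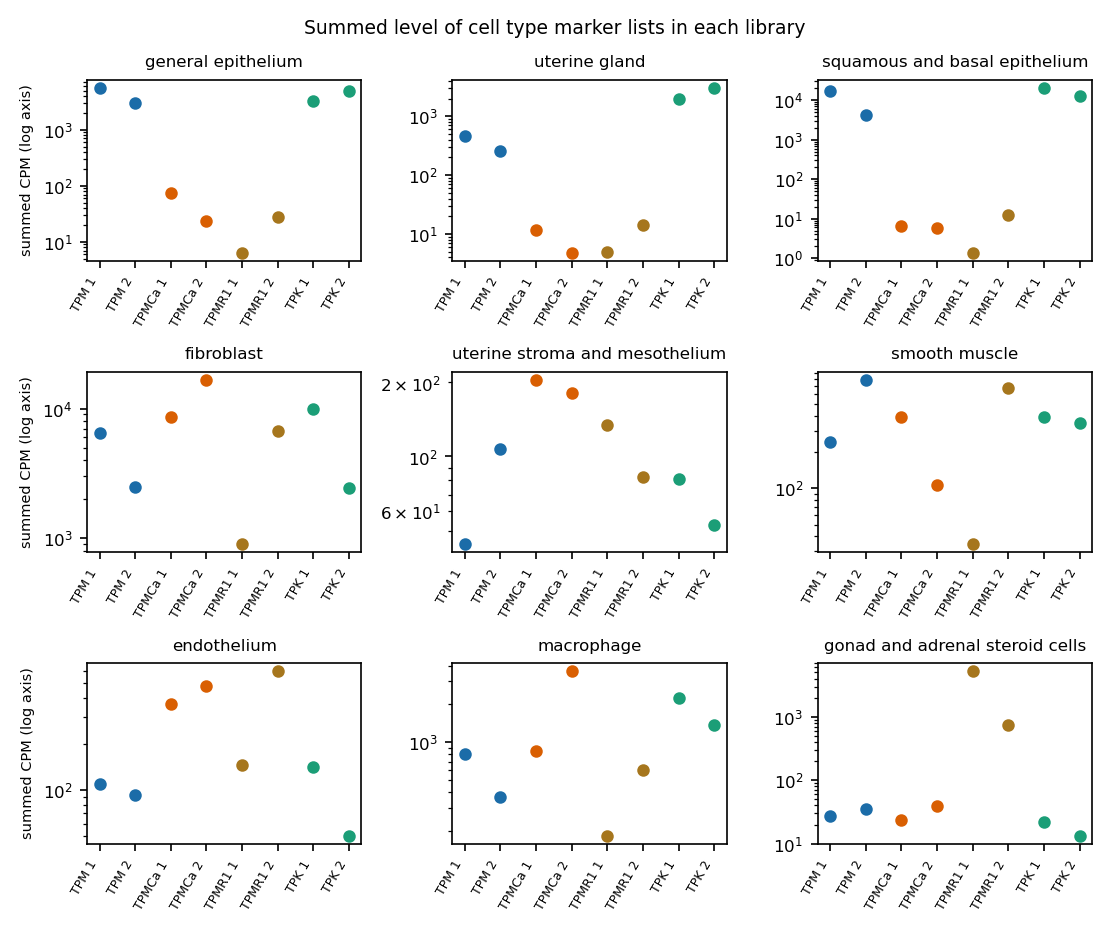
Summed level (CPM, log axis) of 9 marker gene lists in each of the 8 libraries, 1 point per library, colored by model. General, glandular and squamous epithelial lists were high in TPM and TPK and low in TPMCa and TPMR1. In TPM and TPK most of the glandular sum came from Wfdc2. The fibroblast, smooth muscle and macrophage lists overlapped between these pairs of models, and the gonad and adrenal list was high in the TPMR1 libraries.

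The study set TPM and TPK each against TPMCa and TPMR1 as a joint group, and the same contrasts were made here for the Wnt genes. Against the mean of TPMCa and TPMR1, the ligands Wnt7b, Wnt10a and Wnt16 were higher in TPM and in TPK. So were the receptors Fzd1, Fzd6 and Fzd10 and the feedback genes Rnf43 and Notum. The coreceptor Lrp5 and the R-spondin Rspo2 were lower than this mean in both. Counts were high enough to test 44 of the 51 genes, and these 44 passed a filter on low counts that a gene can pass by being high in 1 model. Wnt1, Wnt3, Wnt3a, Wnt8a, Wnt8b, Wnt9b and Dkk1 did not pass it. In TPM 10 genes were higher and 2 lower than in the mean of TPMCa and TPMR1 at an edgeR adjusted p under 0.05, against a background of 7.44% of all 15875 genes tested called higher and 1.45% called lower. In TPK 10 genes were higher and 4 lower, against a background of 10.3% higher and 4.06% lower. The 12 genes called in TPM were 27.3% of those tested and the 14 called in TPK 31.8%. The median log2 fold change of the 44 genes was 1.03 in TPM and 0.67 in TPK, beside -0.02 and -0.00205 over all genes, and the median in TPK was 0.58 with 4 genes that had 0 counts in a reference model set to their bound. Both contrasts use the same TPMCa and TPMR1 libraries, so their shared calls are not independent: 10 genes were called in both, 16 in either and 28 of those tested in neither. At the thresholds the study names, a log2 fold change beyond 1 with an unadjusted p under 0.05, 14 genes were higher and 3 lower in TPM where 20.0% of all genes passed in either direction, and 16 were higher and 4 lower in TPK where 25.2% passed.

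**Figure D2:**
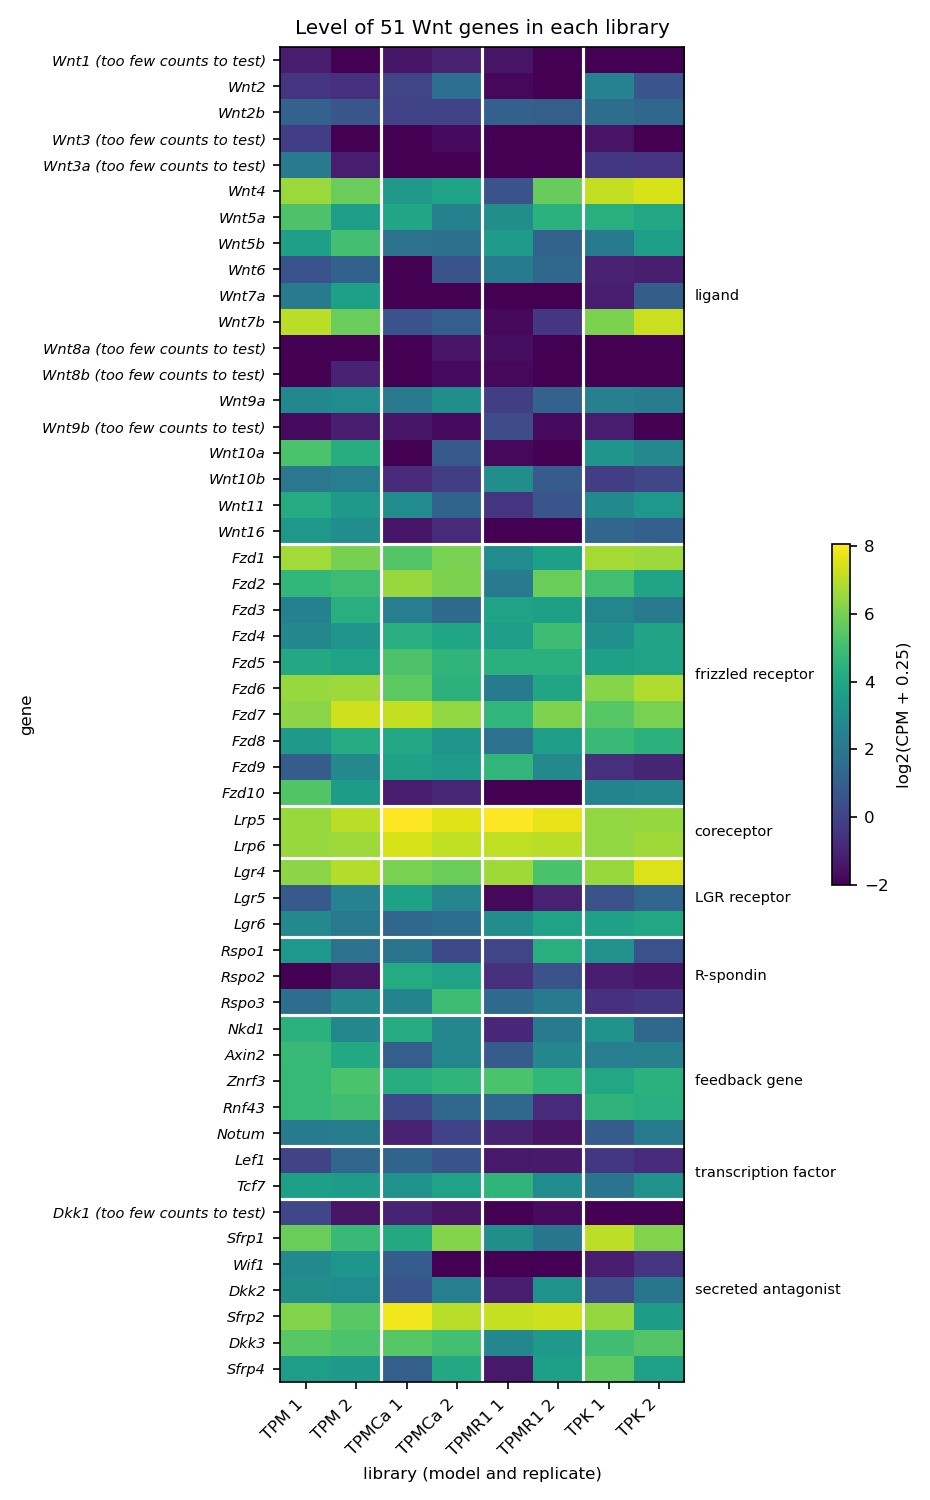
Level of the 51 Wnt genes (rows, ordered by role) in the 8 libraries (columns, model and replicate) as log2(CPM + 0.25), with lighter color for higher levels and white lines between models and roles. Wnt7b, Wnt10a, Wnt16, Fzd10 and Rnf43 were light in the TPM and TPK columns and dark in those of TPMCa and TPMR1, while Lrp5 was lightest in TPMCa and TPMR1.

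The number of calls depended on single libraries. Leaving out 1 library at a time, the count in TPM lay between 3, without replicate 1 of TPM, and 15, without replicate 2 of TPMR1. It was 4 without replicate 2 of TPM, 5 and 7 without replicates 1 and 2 of TPMCa, and 7 without either replicate of TPK. In TPK it lay between 2, without replicate 2 of TPK, and 17, without replicate 2 of TPMR1, and it was 4 without replicate 1 of TPK, 8 without either replicate of TPM, and 7 and 9 without replicates 1 and 2 of TPMCa. Without replicate 1 of TPMR1, the library with the highest steroid cell markers, 12 genes were called in TPM and 15 in TPK. Wnt7b and Fzd10 were called in both contrasts whichever library was left out, and Wnt16 was so in TPM. With TPMCa alone as the reference 4 genes were called in TPM, Wnt7b, Wnt16, Fzd10 and Rspo2. In TPK 7 were, Wnt7b, Fzd9, Fzd10, Lrp5, Lgr6, Rspo2 and Rspo3. The other calls described here, Rnf43 and Notum among them, were not made against that model by itself. Against TPMR1 alone 9 genes were called in TPM and 13 in TPK, with Rnf43 and Notum called in both. Rspo2 was called against TPMR1 alone in neither contrast, and Lrp5 was so only in TPK. With the replicate number as a term of the fit 9 genes were called in TPM and 8 in TPK.

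**Figure D3:**
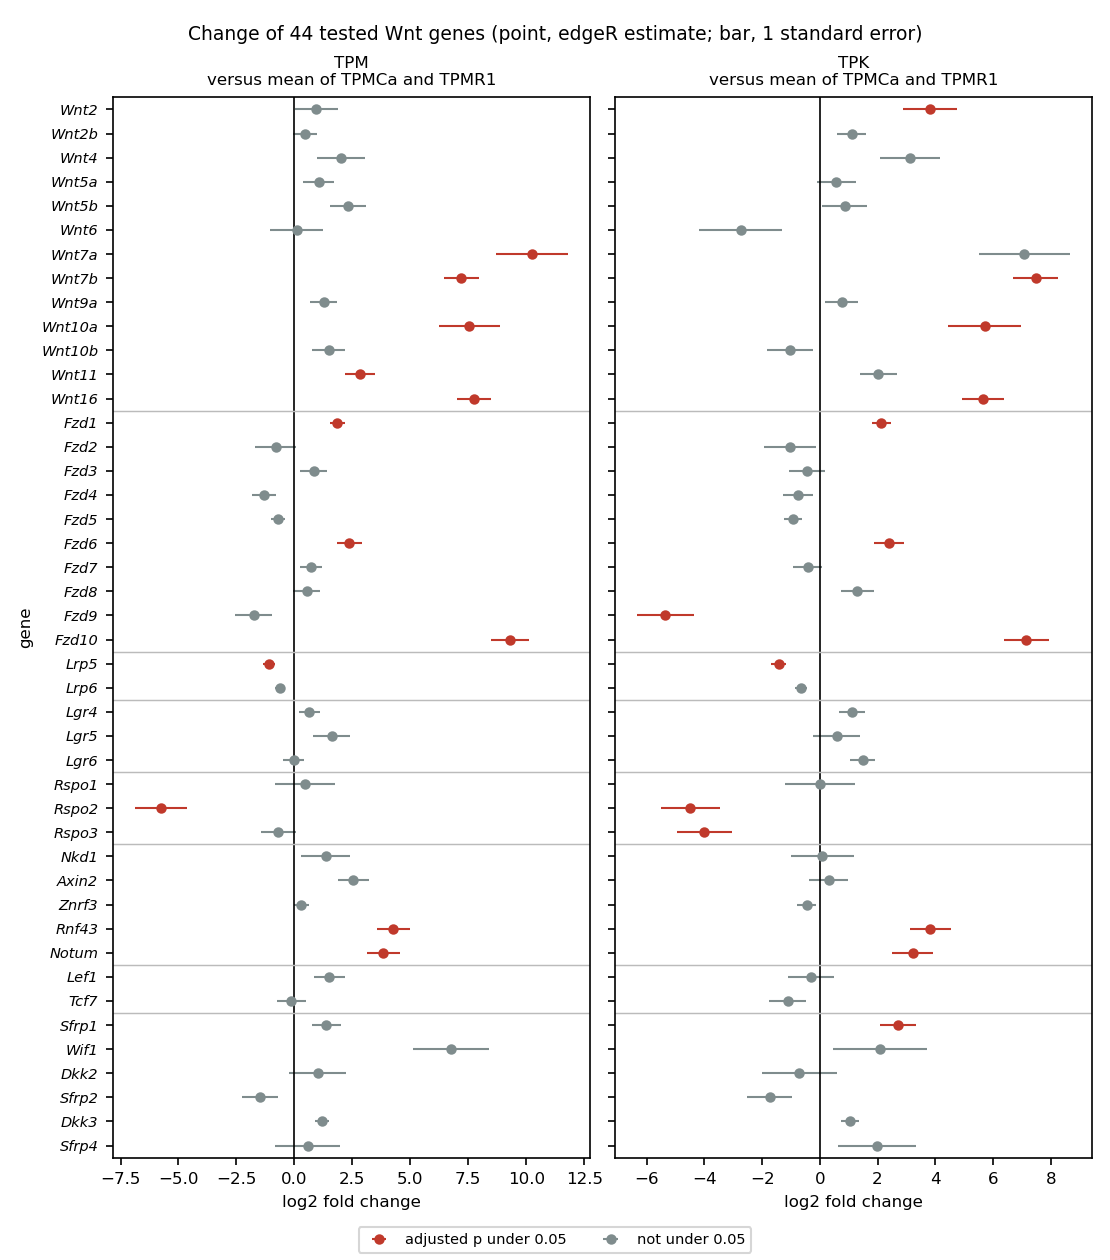
Log2 fold change of the 44 tested Wnt genes (points, edgeR estimate; bars, 1 standard error) in TPM (left) and TPK (right) against the mean of TPMCa and TPMR1, with genes in rows by role and red for an adjusted p under 0.05. The called points run from -5.77 to 10.24 in TPM and from -5.35 to 7.48 in TPK, and the farthest to the right among them, Wnt7a, Fzd10, Wnt16, Wnt10a and Wnt7b, are genes with counts near or at 0 in TPMCa or TPMR1, for which the size of the estimate is not precise.

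Among the ligands, 5 of the 13 tested were higher in TPM, 4 were higher in TPK and 0 were lower in either. Over all genes tested, 7.44% were called higher in TPM and 10.3% in TPK. The median log2 fold change of the ligands was 2.03 in each contrast, also with Wnt7a and Wnt16 at their bounds. Wnt7b (chr15:85535437-85582473), an epithelial ligand of the canonical branch, was at 129 and 53.4 CPM in TPM, 67.6 and 152 CPM in TPK, 1.20 and 1.78 CPM in TPMCa and 0.0387 and 0.50 CPM in TPMR1. Its lowest library in TPM and TPK lay far above its highest in TPMCa and TPMR1, and the edgeR log2 fold change was 7.20 ± 0.76 (SE) in TPM with an adjusted p of 0.00342 and 7.48 ± 0.77 in TPK with 0.00278. Fewer cells of a type and less RNA per cell cannot be told apart in such bulk libraries, and the part of the epithelial markers in this difference was not tested. Wnt10a (chr1:74791516-74804179), a ligand known from skin, hair and teeth, was at 36.8 and 19.0 CPM in TPM, 9.20 and 6.46 CPM in TPK, 0 and 1.5 CPM in TPMCa and 0.0387 and 0 CPM in TPMR1. These levels did not overlap either, and the estimates were 7.54 ± 1.30 in TPM (edgeR adjusted p = 0.0172) and 5.71 ± 1.26 in TPK (adjusted p = 0.03), with their size set in part by the 0 to 1 counts in 3 of the 4 reference libraries. Wnt10a was no longer called in TPM without either replicate of TPM, and in TPK without any 1 of the replicates of TPK or TPM, where the adjusted p went up to 0.102 and 0.117. Against TPMCa alone neither call was made, with log2 fold changes of 5.18 in TPM (edgeR adjusted p = 0.116) and 3.35 in TPK (adjusted p = 0.179).

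Wnt16 (chr6:22288227-22298522), a ligand known from bone and skin, was at 9.93 and 7.49 CPM in TPM, 2.23 and 1.85 CPM in TPK, 0.127 and 0.334 CPM in TPMCa and 0 and 0 CPM in TPMR1. It was detected in all TPM and TPK libraries, in TPMCa on 2 and 6 counts and in TPMR1 on 0 counts, so its mean level in TPM was at least 61.6-fold and in TPK at least 14.4-fold higher than in TPMR1. The adjusted p of edgeR was 0.00423 in TPM and 0.00868 in TPK, and without replicate 2 of TPK the latter was 0.0528. Against TPMCa alone its log2 fold change was 5.19 in TPM and 3.10 in TPK, where the adjusted p was 0.0746, above the threshold. Wnt7a (chr6:91363981-91411363), the ligand of the uterine luminal epithelium, was at 4.15 and 12.6 CPM in TPM, 0.171 and 1.71 CPM in TPK and 0 in the 4 libraries of TPMCa and TPMR1. It was at least 47.1-fold higher in TPM than in TPMCa and at least 59.4-fold higher than in TPMR1 (edgeR adjusted p = 0.0263 against their mean), and 4 of the 8 left-out libraries, those of TPM and TPMCa, ended this call. In TPK its adjusted p was 0.0515, with 1 of the TPK libraries at 3 counts, at the floor.

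Wnt11 (chr7:98835112-98855195), a ligand of the noncanonical branch whose promoter is shown above, was at 18.2 and 10.5 CPM in TPM, 6.57 and 9.95 CPM in TPK, 7.03 and 2.11 CPM in TPMCa and 0.465 and 1.33 CPM in TPMR1. It was highest in TPM, but the TPK level overlapped that of TPMCa, and the edgeR log2 fold change of 2.83 ± 0.66 in TPM (adjusted p = 0.0464) was called in 1 of the 8 fits that left out a library, the fit without replicate 2 of TPMR1. In TPK the estimate was 2.03 ± 0.65 with an adjusted p of 0.0848. Wnt2 (chr6:17988940-18030585), a ligand of stroma and endothelium in several organs, was at 5.26 and 1.32 CPM in TPK, 0.482 and 0.400 CPM in TPM, 0.823 and 2.95 CPM in TPMCa and 0.0387 and 0 CPM in TPMR1. The TPK and TPMCa levels overlapped and those of TPMR1 were near 0, and the call in TPK (3.82 ± 0.95, edgeR adjusted p = 0.0423) was lost in all 8 fits that left out a library, with adjusted p-values from 0.0513 to 0.272. The other 7 tested ligands, Wnt2b, Wnt4, Wnt5a, Wnt5b, Wnt6, Wnt9a and Wnt10b, were called in neither contrast. Wnt4, named after its values were seen because its level per kilobase of exon was among the highest of all ligands, was at 142 and 175 CPM in TPK, 94.1 and 54.2 CPM in TPM, 10.7 and 14.1 CPM in TPMCa and 1.24 and 52.3 CPM in TPMR1. Both TPK libraries lay above all others and the TPMR1 replicates lay far apart, with an edgeR adjusted p of 0.283 in TPM and 0.0934 in TPK. Of the 6 ligands too low to test, Wnt3a, the ligand of the organoid medium, had the most counts and is named after its values were seen: 69 and 3 counts in TPM, 9 and 7 in TPK and 0 in TPMCa and TPMR1, so its mean level in TPM was at least 12.1-fold higher than in TPMCa, most of it in replicate 1.

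**Figure D4:**
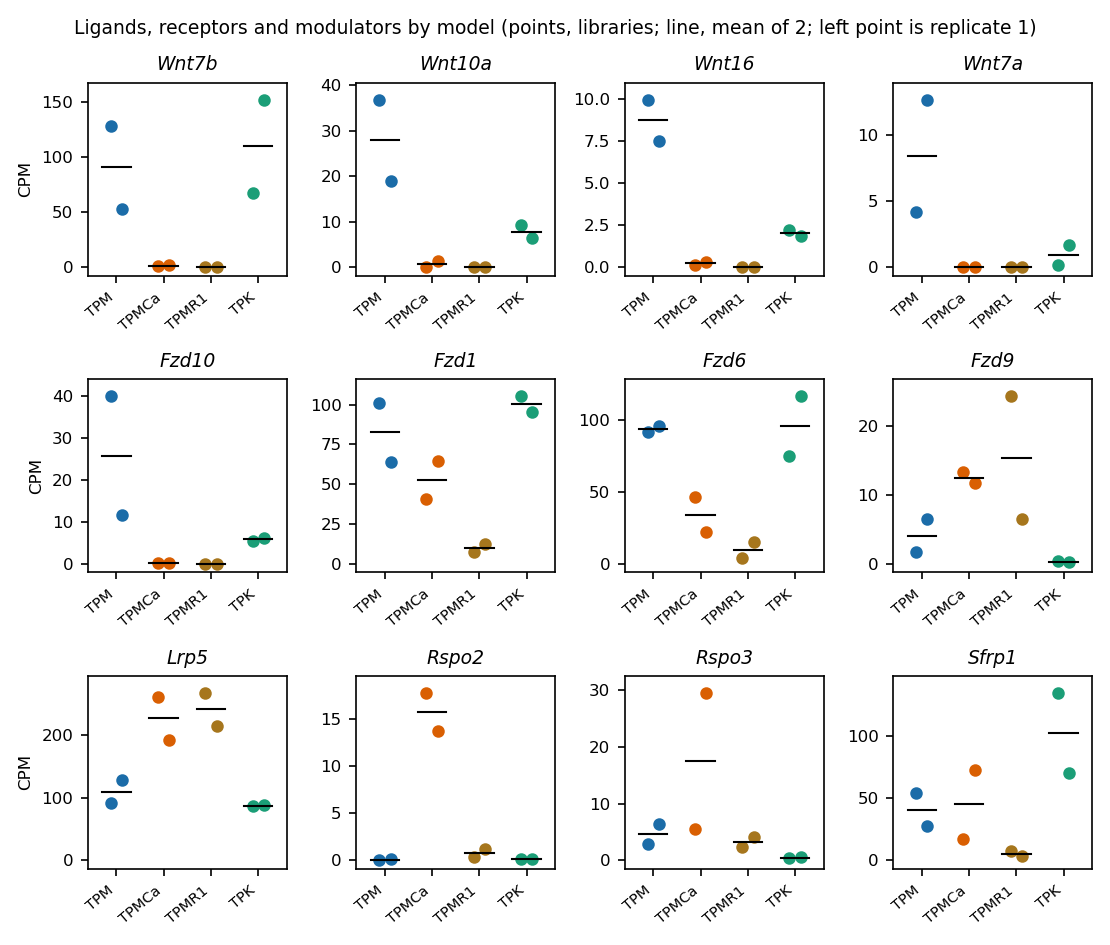
Level (CPM, linear axis from 0) of 12 of the 16 genes called in either contrast, all ligands, receptors or modulators, by model. Each point is a library (replicate 1 to the left) and the line is at the mean of 2. Wnt7b, Wnt10a, Wnt16 and Fzd10 were near 0 in both TPMCa and TPMR1, Rspo2 was highest in TPMCa, and Fzd1 and Sfrp1 in TPMCa overlapped those of TPM.

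Of the 10 Frizzled receptors, Fzd1, Fzd6 and Fzd10 were higher in both contrasts and Fzd9 was lower in TPK. The shares over all genes were 7.44% higher in TPM, and 10.3% higher and 4.06% lower in TPK. The receptors without a call were 6 of the 10, Fzd2, Fzd3, Fzd4, Fzd5, Fzd7 and Fzd8, and the median log2 fold change of all 10 was 0.62 in TPM and -0.43 in TPK. Fzd10 (chr5:128600844-128604093), a receptor with low expression in most adult tissues, was at 39.9 and 11.6 CPM in TPM, 5.54 and 6.13 CPM in TPK, 0.190 and 0.278 CPM in TPMCa and 0 and 0 CPM in TPMR1. The level in TPM was at least 182-fold and that in TPK at least 41.3-fold higher than in TPMR1, where 0 counts were found, and against TPMCa alone, with 3 and 5 counts, the log2 fold change was 6.73 in TPM and 4.59 in TPK. Against the mean of the reference models the adjusted p of edgeR was 0.00311 in TPM and 0.00519 in TPK. Fzd6 (chr15:39006034-39038188), a receptor of planar polarity in skin, was at 91.4 and 95.5 CPM in TPM, 75.0 and 116 CPM in TPK, 46.1 and 21.9 CPM in TPMCa and 4.10 and 15.3 CPM in TPMR1. Its levels in TPM and TPK lay above all 4 reference libraries, and its estimates were 2.37 ± 0.53 in TPM (edgeR adjusted p = 0.0418) and 2.40 ± 0.53 in TPK (adjusted p = 0.0305). Each of these calls was lost in 6 of the 8 fits that left out a library, those without a library of TPM, TPK or TPMCa, with the adjusted p up to 0.187 and 0.205.

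Fzd1 (chr5:4753839-4758035), a broadly expressed receptor, was at 101 and 64.0 CPM in TPM, 105 and 95.5 CPM in TPK, 40.7 and 64.8 CPM in TPMCa and 7.24 and 12.7 CPM in TPMR1. The level in TPMCa overlapped that in TPM, and the higher mean in TPM (1.85 ± 0.33, edgeR adjusted p = 0.0194) was not found against TPMCa alone, where the log2 fold change was 0.65 with an adjusted p of 0.377. In TPK it was 2.13 ± 0.33 with an adjusted p of 0.01. Both TPK libraries lay above those of TPMCa, but this call too was lost against TPMCa alone, at 0.93 with an adjusted p of 0.191. Fzd1 was not called in TPK without either TPK replicate (adjusted p = 0.064 and 0.066) and in TPM without replicate 1 of TPM, replicate 1 of TPMCa or either replicate of TPK. Fzd9 (chr5:135248938-135251230), a receptor best known from brain and bone, was at 0.400 and 0.264 CPM in TPK, 1.69 and 6.46 CPM in TPM, 13.3 and 11.6 CPM in TPMCa and 24.2 and 6.50 CPM in TPMR1. It was lowest in TPK, on 7 and 4 counts, with an edgeR log2 fold change of -5.35 ± 0.99 and an adjusted p of 0.018, which was 0.103, 0.153 and 0.0529 without replicate 1 of TPK, replicate 2 of TPK and replicate 1 of TPMCa. In TPM it was -1.76 ± 0.78 (adjusted p = 0.223).

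The coreceptor Lrp5 (chr19:3584828-3686564) was lower in both contrasts. It was at 90.9 and 128 CPM in TPM, 86.2 and 87.6 CPM in TPK, 261 and 192 CPM in TPMCa and 267 and 215 CPM in TPMR1, with no overlap between the TPM and TPK libraries and the others. The edgeR log2 fold change was -1.09 ± 0.26 in TPM (adjusted p = 0.0497) and -1.43 ± 0.27 in TPK (adjusted p = 0.018). The call in TPM was at the edge of the threshold and held in 1 of the 8 fits that left out a library, the fit without replicate 2 of TPMR1, while that in TPK held in 6, all but those without a TPK replicate (adjusted p = 0.109 and 0.139). Lrp6, the other coreceptor, had estimates of the same sign, -0.62 ± 0.21 and -0.65 ± 0.21, with adjusted p-values of 0.123 and 0.0812.

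R-spondins and their LGR receptors set how much Frizzled stays at the membrane. Rspo2 (chr15:43020794-43170826), a mesenchymal R-spondin, was at 17.8 and 13.7 CPM in TPMCa, 0.387 and 1.22 CPM in TPMR1, 0 and 0.114 CPM in TPM and 0.171 and 0.132 CPM in TPK. It was thus high in TPMCa and near the floor in TPM and TPK, and it was called lower in TPM (-5.77 ± 1.12, edgeR adjusted p = 0.0258) and in TPK (-4.48 ± 1.01, adjusted p = 0.0324), with 2 counts over both TPM libraries and 5 over both TPK libraries behind these estimates. The calls held in 2 and 4 of the 8 fits without a library and were lost without either TPMCa replicate (adjusted p from 0.0697 to 0.0937 over both contrasts), and the adjusted p went up to 0.134 in TPM and 0.219 in TPK without a replicate of these models. Rspo3 (chr10:29452416-29535867), another mesenchymal R-spondin, was at 5.45 and 29.6 CPM in TPMCa, 2.44 and 4.06 CPM in TPMR1, 2.89 and 6.46 CPM in TPM and 0.400 and 0.527 CPM in TPK. It was lowest in TPK, with an edgeR log2 fold change of -4.01 ± 0.95 and an adjusted p of 0.0371 that rose up to 0.213 in 5 of the 8 fits without a library, those without a TPK or TPM replicate or replicate 2 of TPMCa. In TPM it was -0.69 ± 0.76 (adjusted p = 0.617). Rspo1 was called in neither contrast. With TPMR1 alone as the reference, neither Rspo2 nor Rspo3 was called in TPM or in TPK. None of the 3 LGR receptors passed the edgeR test in either contrast, and 0 in TPM and 2 in TPK had an unadjusted p under 0.05, which 24.9% and 32.0% of all genes had in these contrasts. Lgr5 (chr10:115450311-115587780), a receptor known from epithelial stem cells and itself a Wnt target, was at 13.2 and 5.68 CPM in TPMCa, 1.51 and 5.21 CPM in TPM, 1.14 and 2.18 CPM in TPK and 0.0387 and 0.222 CPM in TPMR1. It was highest in replicate 1 of TPMCa and near 0 in TPMR1, and its adjusted p was 0.278 in TPM and 0.659 in TPK.

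Of the 5 feedback genes, Rnf43 and Notum were higher in both contrasts, and Axin2, Nkd1 and Znrf3 passed the test in neither. Of all genes 7.44% were called higher in TPM and 10.3% in TPK. The median log2 fold change of the 5 feedback genes was 2.54 in TPM and 0.31 in TPK. Rnf43 (chr11:87662722-87735539), the ubiquitin ligase that removes Frizzled, was at 26.7 and 31.6 CPM in TPM, 23.1 and 19.7 CPM in TPK, 0.950 and 2.39 CPM in TPMCa and 2.32 and 0.333 CPM in TPMR1. The lowest of the TPM and TPK libraries stood at 19.7 CPM and the highest of the reference models at 2.39 CPM, with estimates of 4.27 ± 0.71 (edgeR adjusted p = 0.0153) and 3.83 ± 0.71 (adjusted p = 0.0175). Either call held in 5 of the 8 fits that left out a library and was lost without replicate 1 of TPMCa (adjusted p = 0.0709 and 0.0677) or without a replicate of the model itself (0.0725 to 0.0875). Notum (chr11:120653788-120661175), the secreted enzyme that inactivates Wnt proteins, was at 4.27 and 4.58 CPM in TPM, 1.60 and 4.15 CPM in TPK, 0.253 and 0.779 CPM in TPMCa and 0.232 and 0.111 CPM in TPMR1. The groups did not overlap, at low levels throughout, and the estimates were 3.84 ± 0.71 (edgeR adjusted p = 0.0221) and 3.22 ± 0.71 (adjusted p = 0.0301). They were lost in TPM without any 1 of the TPM or TPMCa libraries and in TPK without any 1 of the TPK, TPM or TPMCa libraries, with adjusted p-values up to 0.13 and 0.237.

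Axin2 (chr11:108920349-108950783), the scaffold whose promoter is shown above, was at 27.9 and 17.3 CPM in TPM, 4.63 and 5.01 CPM in TPK, 1.84 and 5.95 CPM in TPMCa and 1.66 and 6.11 CPM in TPMR1. Both TPM libraries lay above the other 6, and TPK lay within the range of the reference models. The edgeR log2 fold change was 2.54 ± 0.66 in TPM with an adjusted p of 0.0642, just above the threshold, and 0.31 ± 0.68 in TPK with 0.792. The difference between TPK and TPM itself was -2.23 ± 0.83 with an unadjusted p of 0.0322 and an adjusted p of 0.683. Nkd1 (chr8:88521354-88594884), the Dishevelled-binding feedback gene, was at 21.0 and 6.18 CPM in TPM, 8.86 and 2.31 CPM in TPK, 18.6 and 6.12 CPM in TPMCa and 0.310 and 4.28 CPM in TPMR1. Its replicates were far apart in every model and no order of the models could be read from them (edgeR adjusted p = 0.472 and 0.971). Znrf3 (chr11:5276324-5444847), the ligase closest to Rnf43, was at 26.9 and 37.0 CPM in TPM, 16.2 and 21.5 CPM in TPK, 19.1 and 23.9 CPM in TPMCa and 37.0 and 25.1 CPM in TPMR1. All 8 levels lay within 16.2 to 37.0 CPM, with estimates of 0.30 ± 0.31 and -0.46 ± 0.32, and adjusted p-values of 0.58 and 0.36.

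The transcription factors Tcf7 and Lef1, which are partners of beta-catenin and also targets of the signal, passed the test in neither contrast. Tcf7 (chr11:52252371-52283014) was at 12.7 and 11.5 CPM in TPM, 3.37 and 8.83 CPM in TPK, 8.61 and 13.9 CPM in TPMCa and 23.9 and 7.23 CPM in TPMR1, and its highest library was replicate 1 of TPMR1. Lef1 (chr3:131110471-131224356) was at 0.783 and 2.23 CPM in TPM, 0.514 and 0.330 CPM in TPK, 2.09 and 1.28 CPM in TPMCa and 0.155 and 0.167 CPM in TPMR1. It lay near the floor in TPMR1, and its adjusted p in edgeR was 0.228 in TPM and 0.822 in TPK, while that of Tcf7 was 0.923 and 0.285.

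**Figure D5:**
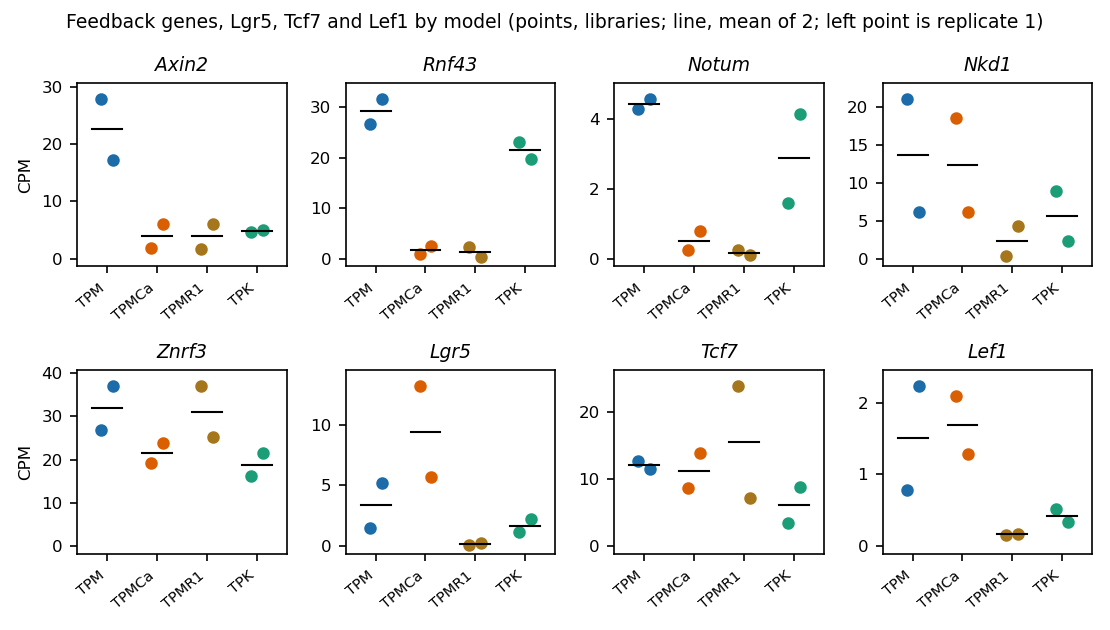
Level (CPM, linear axis from 0) of the 5 feedback genes, Lgr5, Tcf7 and Lef1 by model, with a point per library (replicate 1 to the left) and a line at the mean of 2. Rnf43 and Notum were high in TPM and TPK, Axin2 was highest in TPM, and Znrf3 was at 16.2 to 37.0 CPM in all 8 libraries.

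Among the secreted antagonists, most of which bind Wnt proteins or LRP coreceptors, 0 of the 6 tested were called in TPM and 1 in TPK. In TPM 2 had an unadjusted edgeR p under 0.05 beside 24.9% of all genes. In TPK 10.3% of all genes were called higher and 4.06% lower. Sfrp1 (chr8:23411502-23449632), a decoy for Wnt proteins, was at 135 and 70.3 CPM in TPK, 53.7 and 27.9 CPM in TPM, 17.0 and 72.8 CPM in TPMCa and 7.51 and 3.5 CPM in TPMR1. The TPK and TPMCa libraries overlapped and the TPMR1 libraries were lowest, and the edgeR log2 fold change in TPK was 2.70 ± 0.63 (adjusted p = 0.0352), lost without any 1 of the TPK or TPM libraries, replicate 1 of TPMCa or replicate 2 of TPMR1 (adjusted p up to 0.19). It was at 1.19 with an adjusted p of 0.348 against TPMCa alone. In TPM it was 1.37 ± 0.63 (adjusted p = 0.234). Dkk3 (chr7:112116017-112159057), a member of the Dickkopf family, was at 43.6 and 37.3 CPM in TPM, 31.4 and 41.2 CPM in TPK, 41.9 and 33.2 CPM in TPMCa and 6.04 and 10.6 CPM in TPMR1. It was low in TPMR1 and alike in level in the other models, with an adjusted p of 0.0446 in the edgeR F test of any difference among the 4 models and of 0.0593 and 0.0675 in the contrasts of TPM and TPK. Sfrp2, Sfrp4, Dkk2 and Wif1 were not called. Wif1, named after its values were seen, was at 6.62 and 9.50 CPM in TPM and 0.171 and 0.461 CPM in TPK. It was at 1.65 and 0 CPM in TPMCa and 0 and 0 CPM in TPMR1. Its edgeR log2 fold change was 6.74 ± 1.64 in TPM, with an adjusted p of 0.0642, just above the threshold. In TPK it was 2.09 ± 1.63 (adjusted p = 0.428). Levels of Sfrp2 ran from 11.1 to 231 CPM and those of the other 3 from 0 to 47.1 CPM.

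Levels can be compared between genes only after division by the length of their exons. On this scale, in CPM per kilobase as the mean of 2 libraries, the leading ligands of TPM were Wnt7b at 18.6, Wnt4 at 17.7 and Wnt10a at 11.3. In TPK they were Wnt4 at 37.9 and Wnt7b at 22.5, with the next, Wnt10a, at 3.17. In TPMCa every ligand was at or under the 2.95 of Wnt4, and in TPMR1 the highest mean, 6.38 for Wnt4, came mostly from replicate 2. Among the Frizzled receptors Fzd7 led in TPM, TPMCa and TPMR1, at 26.4, 25.1 and 10.3, and Fzd1 led in TPK at 23.9. Lgr4 stood at 11.4 and the coreceptor Lrp5 at 24.8 in TPMR1, above every Frizzled gene there. Among the feedback genes Rnf43 led in TPM and TPK at 4.45 and 3.27, Axin2 stood at 4.10 and 0.875, and Znrf3 led in TPMCa and TPMR1 at 2.73 and 3.94. The order of genes in a model rests on means of 2 libraries and was not tested.

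Directly compared, TPK and TPM did not differ in any of the 44 genes at an edgeR adjusted p under 0.05, and 0% of all genes passed. At an unadjusted p under 0.05, 9 of the 44 and 7.17% of all genes passed, and the Wald test of DESeq2 called 2, Fzd9 and Rspo3, both lower in TPK. With a log2 fold change beyond 1 added, the same number, 9, passed, 2 higher and 7 lower in TPK, against 5.28% of all genes. The estimates were wide, as for Wnt16 at -2.09 ± 0.70 (SE), Fzd10 at -2.14 ± 0.72, Fzd9 at -3.58 ± 0.97 and Rspo3 at -3.32 ± 0.97. Wnt7b was 0.27 ± 0.76 and Rnf43 -0.44 ± 0.82 between these models.

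TPMR1 and TPMCa, set against each other to describe the models that served as the reference, likewise had 0 of the 44 genes called, and 0% of all genes. At an unadjusted p under 0.05, 19 of the 44 passed, and 11.8% of all genes. All 19 also had a log2 fold change beyond 1, 3 of them higher and 16 lower in TPMR1, where 10.5% of all genes passed, and DESeq2 called 10, 2 higher and 8 lower. Without replicate 2 of TPMR1 edgeR called 8, 1 higher and 7 lower, on the assumption that the remaining TPMR1 library varies like those of the other models. Rspo2 was at -4.29 ± 0.98, Lgr5 at -6.17 ± 1.21, Lef1 at -3.34 ± 0.90, Dkk3 at -2.18 ± 0.38 and Fzd1 at -2.41 ± 0.42 in this contrast, with edgeR adjusted p-values of 0.364, 0.364, 0.372, 0.364 and 0.364.

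In the F test of any difference among the 4 models 8 genes were called, Wnt7b, Wnt16, Fzd1, Fzd10, Lrp5, Rspo2, Rnf43 and Dkk3, which is 18.2% of those tested beside 7.32% of all genes. The count was 0 without replicate 2 of TPK, 1 to 3 without replicate 1 of TPK or a replicate of TPM or TPMCa, 8 without replicate 1 of TPMR1 and 18 without replicate 2 of TPMR1. With the replicate number in the fit it was 4.

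Other genes of the pathway were read from a list of 56, of which 53 could be tested. In each contrast 5 were higher and 0 lower, or 9.43% of those tested. Over all genes 7.44% were called higher and 1.45% lower in TPM. In TPK 10.3% of all genes were called higher and 4.06% lower, so the share of the listed genes lay under the background there. Of the 11 receptors and planar polarity genes, Vangl1, Celsr1 and Celsr2 were higher in both contrasts, where Vangl1 is named after its values were seen. Celsr1, a cadherin of planar polarity, was at 113 and 82.4 CPM in TPM, 107 and 147 CPM in TPK, 21.7 and 4.01 CPM in TPMCa and 0.852 and 4.34 CPM in TPMR1, and its edgeR log2 fold change was 4.09 ± 0.77 in TPM and 4.46 ± 0.78 in TPK (adjusted p = 0.0231 and 0.0145). For Celsr2, of the same family, it was 3.79 ± 0.66 in TPK (adjusted p = 0.0145). Nkd2, a relative of Nkd1 and a Wnt target, was at 81.9 and 37.2 CPM in TPM, 12.6 and 23.2 CPM in TPK, 8.17 and 6.01 CPM in TPMCa and 0.813 and 2.28 CPM in TPMR1, higher in TPM (4.17 ± 0.54, adjusted p = 0.00671) and in TPK (2.44 ± 0.53, adjusted p = 0.0281). Sostdc1, a secreted antagonist known from skin and teeth, was at 36.4 and 18.3 CPM in TPM, 2.34 and 0.527 CPM in TPK, 0.317 and 0.0557 CPM in TPMCa and 0 and 0.167 CPM in TPMR1, and it was called in TPM alone (7.78 ± 1.13, adjusted p = 0.00947), the difference of TPK from TPM being -4.24 ± 1.26 with an adjusted p of 0.668. Pygo2, likewise named after its values were seen, was the 1 of 10 nuclear factors called, in TPK. Neither the 2 genes of ligand secretion, Porcn and Wls, nor any of the 11 genes of the cytoplasmic relay, beta-catenin among them, were called in edgeR in either contrast.

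Markers of epithelium were also called higher in the contrasts of TPM and TPK with the reference models. All 6 general epithelial genes and all 7 squamous and basal genes were higher in TPM and in TPK at an edgeR adjusted p under 0.05, as were 3 of the 5 tested uterine gland genes, while Prss28 and Prss29, proteases that uterine glands secrete around implantation, had 0 counts in every library. Squamous and basal genes summed to 4353 to 20240.2 CPM in the TPM and TPK libraries and to 1.39 to 12.3 CPM in the others. Cdh1 was at 787 and 698 CPM in TPM, 768 and 792 CPM in TPK, 6.97 and 5.34 CPM in TPMCa and 0.271 and 0.50 CPM in TPMR1, and Krt5, of squamous and basal cells, at 5720.4 and 1281 CPM in TPM, 7358 and 5506 CPM in TPK, 0.0633 and 0.890 CPM in TPMCa and 0 and 0 CPM in TPMR1. Fibroblast genes summed to 2458 to 9979 CPM in TPM and TPK and to 904 to 16679.7 CPM in TPMCa and TPMR1, with 0 of 7 called, as for the 7 genes of uterine stroma and mesothelium, and 0 of 5 genes each were called for smooth muscle, endothelium and macrophages. Endothelial genes summed to 50.2 to 141 CPM in TPM and TPK and to 146 to 599 CPM in TPMCa and TPMR1. Of the 9 gonad and adrenal genes 2 were called lower in TPM and 2 in TPK. The part of any of these cells in the levels of the Wnt genes was not tested.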

How the data were processed

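RNA of 8 libraries, 2 each of the TPM, TPMCa, TPMR1 and TPK models, was sequenced in bulk as paired-end reads. Per the labels, TPMCa is TPMPik3ca and TPMR1 is TPMPik3r1, and the count columns of TPM are headed TPMS. Adapters and low-quality reads had been removed by the sequencing company, and the authors aligned to mm10 with STAR and deposited whole-number counts per gene symbol. The counter, its annotation and its strand setting are not given in the sources used here, so reads of genes that overlap on opposite strands cannot be told apart. A second table deposited by the authors holds normalized signal values, which were tested on the file and equal the counts divided by 1 size factor per library, with a relative deviation of at most 5.26e-10, and it was used for this check alone. Table entries were matched to samples by title and replicate number.

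Counts were normalized by TMM and filtered with filterByExpr in edgeR 4.0.16 (R 4.3.3, limma 3.58.1), which left 15875 of 24419 genes, and all 8 libraries entered a single quasi-likelihood fit by model. Contrasts and the F test were adjusted over all genes tested by the Benjamini-Hochberg method, and genes were called at an adjusted p under 0.05. Standard errors were derived from the F statistic. No permutation test was run, since 2 libraries against 2 or 4 cannot give a p under 0.05. The p-values set each difference against the spread between these libraries, which the single fit pools over all models. A fold over a model with 0 counts in both libraries is a bound against 3 counts in each. Exon lengths and positions came from GENCODE M21 on GRCm38, the assembly behind mm10, and promoters from RefSeq on GRCm38.p6. The procedure was tested on simulated counts drawn with the same spread in every model, so that test does not cover the wider spread of TPMR1.

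Alternatives were the size factors or tests of DESeq2 1.42.0, library size alone, other low-count filters, a term for the replicate number, fits of only the models compared, TPMCa or TPMR1 alone as the reference, the thresholds of the study and leaving out each library. The genes, the pathway and marker lists and the tests were chosen with earlier results of these data known. Named with values are genes called in a contrast or by the F test, Axin2, Nkd1, Notum, Rnf43, Znrf3, Lgr5, Tcf7 and Lef1, and of other pathway genes up to 3 called per direction and contrast with the largest change. Results on some engineered genes are not reported here.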

Additional observations from a re-analysis of the deposited data

How the results depend on the processing

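With 2 libraries per model, the counts of called Wnt genes moved with the libraries and models in the fit more than with the scaling. In TPM against the joint reference of TPMCa and TPMR1 the count of 12 became 7 in a fit of only the models compared and 4 with TPMCa alone as the reference, and lay between 3 and 15 with a library left out. In TPK against that reference the count of 14 became 8 with the replicate block, 8 in a fit of only the models compared and 7 with TPMCa alone, and lay between 2 and 17 with a library left out. For TPK against TPM the count of 0 became 2 with DESeq2 and 9 at the thresholds of the study, and stayed 0 with any library left out. For TPMR1 against TPMCa it became 10 with DESeq2 and 19 at those thresholds, and lay between 0 and 8 with a library left out. For any difference among the 4 models the count of 8 became 26 with the likelihood-ratio test of DESeq2 and 4 with the replicate block, and lay between 0 and 18. The Wald test of DESeq2 called 17 genes in TPM and 21 in TPK against the joint reference. With TPMR1 alone as the reference these counts were 9 and 13. Why the counts moved was not tested. The replicate numbers did not pair the libraries, since the correlations of same-numbered deviations lay between -0.0764 and 0.00678, and the block took the count in TPM from 12 to 9. Wnt7b and Fzd10 in both contrasts and Wnt16 in TPM were called in all 17 alternatives run for single genes. Library size alone moved the median of all genes by -0.121 in TPK against the reference and by -0.122 in TPK against TPM.

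Signs turned for genes that were not called. In TPM the log2 fold change became -0.16 for Lef1, -1.49 for Lgr5, -0.14 for Sfrp1, 0.11 for Tcf7 and -2.08 for Wnt2 with TPMCa alone, 0.53 for Rspo3 with TPMR1 alone, and 0.15 for Rspo3 and 0.062 for Tcf7 without replicate 2 of TPMCa. With a library left out Rspo3 ran from -1.38 to 0.15 and Tcf7 from -0.44 to 0.42. In TPK it became -0.049 for Dkk3, -2.50 for Lgr5 and -1.14 for Nkd1 with TPMCa alone, 1.36 for Lef1 with TPMR1 alone. For Nkd1 in TPK it was also -0.081 with library size alone and -0.23 with the replicate block. With a library left out Axin2 in TPK ran from -0.018 to 0.92 and Nkd1 from -1.22 to 1.5, each negative without replicate 1 of TPMR1, and Nkd1 also without replicate 1 of TPK or replicate 2 of TPMCa. The cause was not tested.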
